A study of Mus musculus with 9 samples.

Results

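The genes described here encode the nuclear subunits of the mitochondrial respiratory chain, measured in cerebellar medulloblastoma and cerebellum of mice at postnatal day 13. Members were chosen by gene symbol alone. These were the Nduf subunit and assembly factor genes, Uqcr genes with Cyc1, Sdh genes, Cox4 to Cox8 genes and Atp5 genes. Symbols with a pseudogene ending (-ps) were left out. Whether a probe set also reads pseudogene copies was not checked. A probe set had to be annotated to 1 gene, and the brightest probe set stood for a gene that had several. This gave 90 members among 19938 genes, of which 34 belong to complex I, 7 are complex I assembly factors, 4 belong to complex II, 9 to complex III, 19 to complex IV and 17 to complex V. A filter on low values passed 89 members among 16323 genes. Cox7b2, a testis form of a complex IV subunit, did not pass: its log2 values lay between 4.72 and 4.89 on all 9 arrays. The 3 groups, with 3 arrays each, are named here as in the labels: Ptch1KO is medulloblastoma, the cerebellar tumour, labelled as knockout for the Hedgehog receptor gene Ptch1; SufuKO is cerebellum labelled as knockout for Sufu, an inhibitor of Hedgehog signalling; and wildtype is cerebellum without either. The series is concerned with how Sufu restrains medulloblastoma of the Sonic hedgehog type. Strain, alleles, any Cre driver and any pooling of animals are not stated in the labels. The labels do not tie the samples to different mice, and p-values therefore reflect sample-to-sample spread that could be technical.

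The respiratory chain sits in the inner mitochondrial membrane. Complexes I and II pass electrons from NADH and succinate to ubiquinone, complex III passes them on to cytochrome c, and complex IV gives them to oxygen. The protons pumped on the way drive complex V, the ATP synthase. Most subunits are encoded in the nucleus and are made in step with a small set encoded by mitochondrial DNA. In cerebellum, mature neurons have a high demand for ATP from this chain, and granule neuron progenitors, the cells from which Hedgehog medulloblastoma arises, are known for a glycolytic metabolism.

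Values are log2 expression values as deposited, each ± is a standard error of the fit over 3 arrays a group, differences between groups are log2 differences, and a gene is called higher or lower where its adjusted p in limma was under 0.05. Array medians over all probe sets lay between 6.72 and 6.79, and the first principal component, with 77.5% of the variance, placed 2 Ptch1KO arrays at 41.3 and 39.9, the third at 26.1, the SufuKO arrays between -2.8 and 0.869 and the wildtype arrays between -36 and -32.1. Sufu was at 7.99 to 8.14 on SufuKO arrays, against 8.82 to 9.03 on wildtype arrays. Ptch1 was at 11.17 to 11.43 on Ptch1KO arrays, against 10.25 to 10.28 on wildtype arrays, so that it was higher, not lower, in the group labelled as its knockout. The deleted part of Ptch1 is not given in the sources used here, so its probe set does not check the label. Xist, a transcript of female cells that silences an X chromosome, was high on 1 Ptch1KO array, 1 SufuKO array and all 3 wildtype arrays. The tissue is bulk RNA, in which fewer cells of a type and less RNA per cell cannot be told apart.

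Tumours had lower levels of subunits of every complex. In Ptch1KO against wildtype, 67 of 89 members were lower and 0 were higher, while 24.7% of all tested genes were lower and 22.1% were higher. At an unadjusted p under 0.05 in limma, 70 members were lower and 0 higher, against 27.47% and 24.41% of all tested genes. The members' median log2 difference was -0.38, against -0.01 for all tested genes, and the differences ranged between -0.93 for Cox8a and 0.15 for Cox7a2l. For 70 members, every Ptch1KO array lay below every wildtype array, which was so for 30.2% of all tested genes. Because the members are bright on these arrays, genes at or above the members' median level of 9.25 were counted as well: of 2492 such genes, 42.26% were lower and 27.85% higher in the tumours. By complex, the lower members numbered 27 of 34 in complex I, 3 of 4 in complex II, 7 of 9 in complex III, 13 of 18 in complex IV and 14 of 17 in complex V, beside 3 of 7 assembly factors. The declines were modest in size, with 23 members lower by at least 0.5 on the log2 scale. Of the 67 calls, 44 held under each of 19 alternative settings, and 56 held in each of the 9 fits that left out 1 array. Xist was high on all 3 wildtype arrays, so that its class is partly confounded with genotype. A term for it rests on the 1 high array against the others in each mutant group, which in SufuKO is replicate 3. Xist class, genotype and single arrays can therefore not be fully told apart. With the Xist class of each array as a term in the model, 46 members were lower, against 24.19% of all tested genes in that fit, and the members' median was -0.32. For the 22 calls lost there, the median difference was -0.25 with the term and -0.35 without it.

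**Figure D1:**
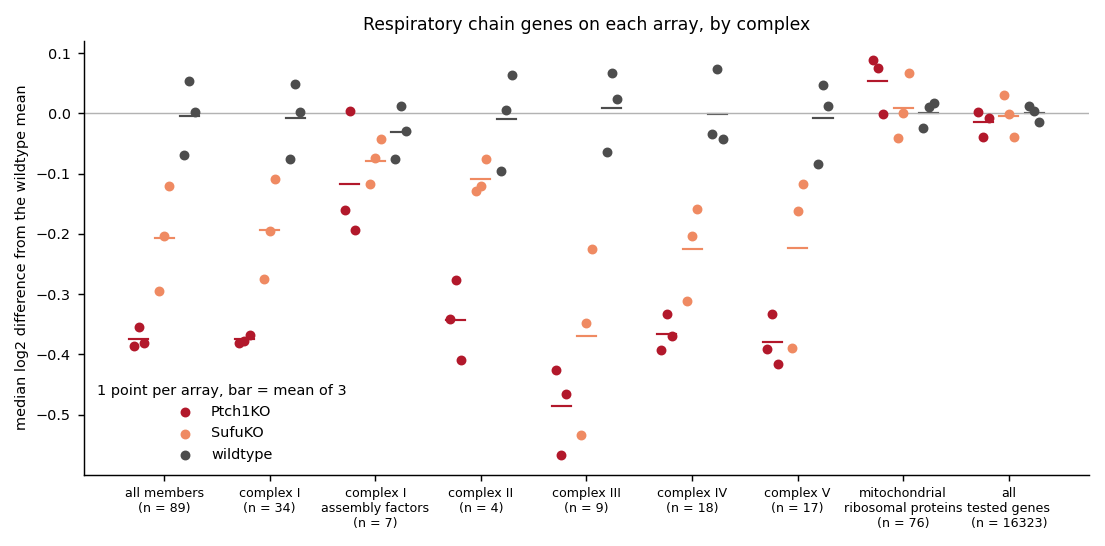
Each point is 1 array, and its height is the median, over the genes of a set, of the log2 difference from the wildtype mean. The horizontal bars are means of 3 arrays, with sets along the horizontal axis. For all 89 members the Ptch1KO arrays sit between -0.39 and -0.35, the SufuKO arrays between -0.29 and -0.12 and the wildtype arrays between -0.07 and 0.05, while the medians over 76 mitochondrial ribosomal protein genes lie between -0.04 and 0.09 in all groups.

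Complex I, the NADH dehydrogenase, is the largest of the complexes and the entry point for electrons from NADH. In the tumours all 34 of its subunit genes had negative differences, with a median of -0.42. Ndufa1, a small membrane-anchored accessory subunit, was at 7.05, 7.15 and 7.21 on the Ptch1KO arrays, 7.27, 7.32 and 7.88 on the SufuKO arrays, and 7.83, 8.08 and 8.07 on the wildtype arrays. All 3 tumour arrays lay below all 3 wildtype arrays, and SufuKO replicate 3 stood apart from the other SufuKO arrays and reached into the wildtype range. Its log2 difference in Ptch1KO against wildtype was -0.86 ± 0.14 (adjusted p = 0.00021), the lowest in complex I. Ndufv3, an accessory subunit beside the NADH-binding site, was at 8.29, 8.25 and 8.42 on the Ptch1KO arrays, 8.75, 8.87 and 8.79 on the SufuKO arrays, and 9.01, 8.98 and 8.90 on the wildtype arrays. The 3 groups did not overlap, with tumours lowest, and the difference from wildtype was -0.64 ± 0.07 (adjusted p = 9.39e-06). Ndufb9, an accessory subunit of the membrane arm, was lower by a similar amount, at -0.63 ± 0.08 (adjusted p = 4.34e-05). The membrane arm subunit Ndufb6 fell to 9.85 to 10.16 on Ptch1KO arrays, against 10.46 to 10.89 on wildtype arrays, with a difference of -0.67 ± 0.17 (adjusted p = 0.00563). That call was lost with the Xist class in the model (adjusted p = 0.0604).

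The core subunits of complex I are those shared with bacteria, and some of them carry its redox centres. Ndufs7, which holds the iron-sulphur cluster nearest to ubiquinone, was at 10.94, 10.84 and 10.93 on the Ptch1KO arrays, 10.98, 11.05 and 10.91 on the SufuKO arrays, and 11.30, 11.46 and 11.26 on the wildtype arrays. Every array of either mutant group lay below every wildtype array, and the mutant groups overlapped. The difference in Ptch1KO against wildtype was -0.43 ± 0.07 (adjusted p = 0.000313). Ndufs1, the largest iron-sulphur subunit, differed by -0.35 ± 0.07 (adjusted p = 0.00121), and Ndufv1, which binds NADH and flavin, by -0.29 ± 0.08 (adjusted p = 0.0139). The core subunits Ndufs3, at -0.26 ± 0.07 (adjusted p = 0.00907), and Ndufs8, at -0.24 ± 0.08 (adjusted p = 0.0201), were lower as well. The Ndufv1 and Ndufs8 calls were each lost without Ptch1KO replicate 2, without wildtype replicate 2 and with the Xist class, with adjusted p up to 0.0713 for Ndufv1 and 0.107 for Ndufs8 over all alternatives. The Ndufs3 call was lost with the Xist class in the model (adjusted p = 0.0502). The core subunit Ndufv2 missed the threshold at -0.22 (adjusted p = 0.0592), as did the accessory subunit Ndufs4 at -0.41 (adjusted p = 0.0564). The other members of complex I that were not called in tumours were Ndufa2, Ndufa7, Ndufa12, Ndufb7 and Ndufab1, the mitochondrial acyl carrier protein, with differences between -0.21 and -0.05. Ndufb11 had 2 probe sets that disagreed, since its brighter one was lower at -0.27 (adjusted p = 0.0149) and its dimmer one was not called at -0.11 (adjusted p = 0.4 in a fit over probe sets). The call of the brighter one was lost with the mean of its probe sets, with quantile normalization and without Ptch1KO replicate 2 or wildtype replicate 2 (adjusted p up to 0.0926). The remaining 17 members of complex I were lower in tumours by differences between -0.61 for Ndufa3 and -0.29 for Ndufa11. Among these, Ndufa6, Ndufb2, Ndufc1, Ndufc2, Ndufs5 and Ndufa11 were not called with the Xist class in the model, with adjusted p between 0.0535 and 0.0945.

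Assembly factors build complex I and then leave it. Their median difference in Ptch1KO against wildtype was -0.11, and 4 of 7 (Ndufaf1, Ndufaf2, Ndufaf6 and Ndufaf7) were not called. Ndufaf3, which acts early in the assembly of the matrix arm, was at 8.49, 8.69 and 8.71 on the Ptch1KO arrays, 8.99, 8.91 and 8.84 on the SufuKO arrays, and 8.97, 9.18 and 9.01 on the wildtype arrays. Tumour arrays lay below the arrays of both other groups, which overlapped each other. The tumour difference was -0.42 ± 0.08 (adjusted p = 0.00105). Ndufaf5, which hydroxylates an arginine of Ndufs7, differed by -0.29 ± 0.09 (adjusted p = 0.0136), a call lost without wildtype replicate 2 (adjusted p = 0.0638) and with the Xist class in the model (adjusted p = 0.12). Ndufaf4, a partner of Ndufaf3, was called lower at -0.26 (adjusted p = 0.0378) although its Ptch1KO and wildtype arrays overlapped, and that call was lost under several alternatives, with adjusted p up to 0.177. Of 10 further complex I assembly genes, Tmem126b (-0.48) and Ecsit (-0.21) were lower and Nubpl (0.36) was higher in tumours. Over all tested genes, 24.7% were lower and 22.1% higher there.

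Complex II, succinate dehydrogenase, is the complex that also belongs to the citric acid cycle and has no subunit encoded by mitochondrial DNA. Sdha, its flavoprotein and catalytic subunit, was at 10.41, 10.53 and 10.37 on the Ptch1KO arrays, 10.55, 10.51 and 10.36 on the SufuKO arrays, and 10.75, 10.82 and 10.87 on the wildtype arrays. All mutant arrays lay below all wildtype arrays, and the mutant groups overlapped. Sdha differed by -0.38 ± 0.07 (adjusted p = 0.000963) in Ptch1KO and by -0.34 ± 0.07 (adjusted p = 0.00509) in SufuKO against wildtype, and the SufuKO call held under all 19 alternatives. The membrane anchor subunit Sdhc was at 9.86, 9.68 and 9.82 on the Ptch1KO arrays, 10.13, 10.05 and 10.03 on the SufuKO arrays, and 10.18, 10.23 and 10.31 on the wildtype arrays. Its 3 groups did not overlap, with tumours lowest, and its tumour difference was -0.45 ± 0.07 (adjusted p = 0.000169), while the SufuKO difference of -0.17 (adjusted p = 0.108) missed the threshold. The other anchor, Sdhd, was at 9.07, 9.10 and 8.96 on the Ptch1KO arrays, 9.42, 9.31 and 9.51 on the SufuKO arrays, and 9.23, 9.37 and 9.50 on the wildtype arrays. Tumour arrays were lowest and SufuKO arrays overlapped wildtype arrays, with a tumour difference of -0.32 ± 0.08 (adjusted p = 0.00627) that was lost with the Xist class in the model (adjusted p = 0.0542). In Ptch1KO against SufuKO, Sdhd was lower at -0.37 ± 0.08 (adjusted p = 0.00468) and Sdhc at -0.29 ± 0.07 (adjusted p = 0.00843), whereas Sdha, at -0.04 (adjusted p = 0.781), was not called. Sdhb, the iron-sulphur subunit, was called in no comparison, with differences of -0.06 (adjusted p = 0.626) in Ptch1KO and -0.03 (adjusted p = 0.849) in SufuKO against wildtype.

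Complex III, the cytochrome bc1 complex, had 7 of 9 genes lower in tumours. Uqcrb, a small subunit that takes part in ubiquinone binding, was at 10.64, 10.45 and 10.56 on the Ptch1KO arrays, 10.86, 10.87 and 10.91 on the SufuKO arrays, and 11.25, 11.26 and 11.27 on the wildtype arrays. The wildtype arrays agreed within 0.02, and the groups were fully separated, with tumours lowest. Its difference was -0.71 ± 0.07 (adjusted p = 2.37e-06) in Ptch1KO and -0.38 ± 0.07 (adjusted p = 0.00129) in SufuKO against wildtype. Cyc1, the haem-bearing cytochrome c1 that hands electrons to cytochrome c, was at 9.32, 9.14 and 9.31 on the Ptch1KO arrays, 9.26, 9.44 and 9.56 on the SufuKO arrays, and 9.72, 9.86 and 9.78 on the wildtype arrays. Both mutant groups lay below wildtype and overlapped each other, with a tumour difference of -0.53 ± 0.09 (adjusted p = 0.000259). The small subunit Uqcr11 was lower at -0.59 ± 0.11 (adjusted p = 0.000554). The core proteins Uqcrc1 and Uqcrc2 were lower at -0.48 ± 0.09 (adjusted p = 0.000762) and -0.27 ± 0.06 (adjusted p = 0.00337), and the hinge protein Uqcrh at -0.37 ± 0.08 (adjusted p = 0.00201). Uqcr10 was lower at -0.51 ± 0.15 (adjusted p = 0.0136), a call lost without Ptch1KO replicate 2 and with the Xist class in the model, with adjusted p up to 0.106. Uqcrfs1, the Rieske iron-sulphur protein that is inserted late, had a positive difference in tumours that was not called, at 0.13 (adjusted p = 0.209), and Uqcrq was at -0.33 (adjusted p = 0.0763).

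**Figure D2:**
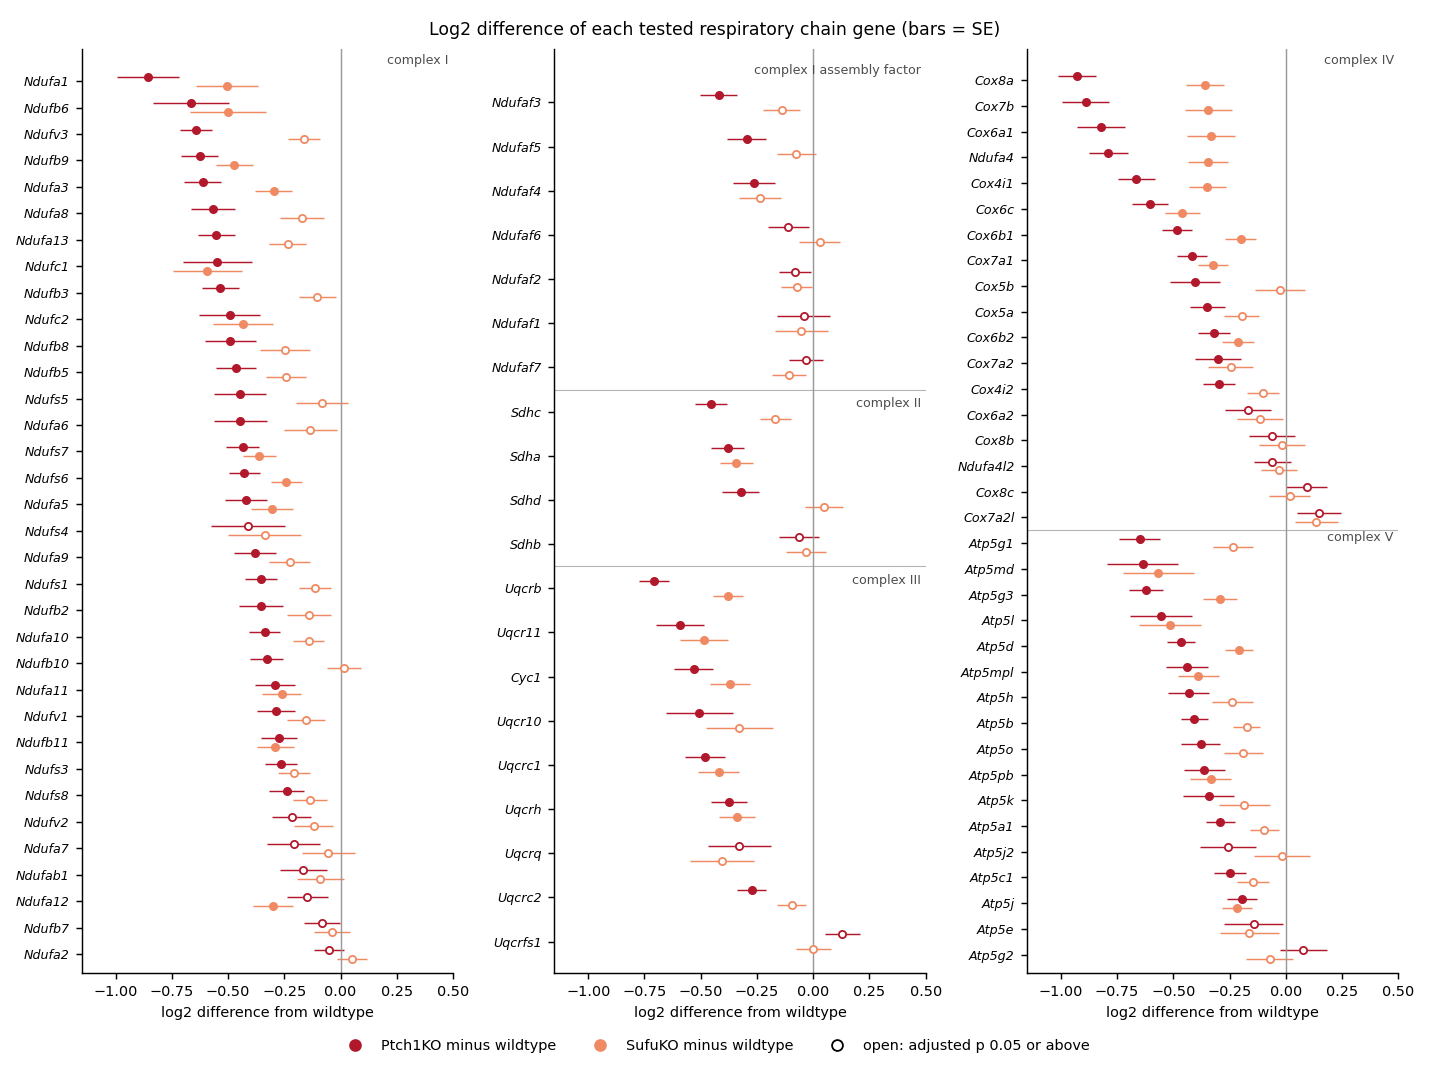
Each row is 1 of the 89 tested members, grouped by complex, with the log2 difference from wildtype on the horizontal axis and the standard error as a bar. Red points are Ptch1KO and orange points SufuKO, and filled points are calls. Nearly all points lie left of 0 and no filled point lies right of it.

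Complex IV, cytochrome c oxidase, held 4 of the 5 deepest falls among the members. Cox8a, the ubiquitous form of subunit 8, was at 10.63, 10.67 and 10.81 on the Ptch1KO arrays, 11.11, 11.27 and 11.42 on the SufuKO arrays, and 11.58, 11.68 and 11.63 on the wildtype arrays. The groups were fully separated in the order Ptch1KO, SufuKO, wildtype from low to high. The difference was -0.93 ± 0.09 (adjusted p = 2.1e-06) in Ptch1KO against wildtype, a ratio of 1.9 between the group means, and -0.57 ± 0.09 (adjusted p = 0.000344) in Ptch1KO against SufuKO. Cox7b, a small subunit, was at 11.26, 11.43 and 11.17 on the Ptch1KO arrays, 11.60, 11.83 and 12.06 on the SufuKO arrays, and 12.15, 12.18 and 12.20 on the wildtype arrays. It showed the same separation of arrays, with a tumour difference of -0.89 ± 0.10 (adjusted p = 1.66e-05), and its dimmer probe set was lower too, at -0.96. Ndufa4, long counted in complex I and now known as a complex IV subunit, was at 9.39, 9.27 and 9.37 on the Ptch1KO arrays, 9.69, 9.73 and 9.95 on the SufuKO arrays, and 9.99, 10.21 and 10.20 on the wildtype arrays. Tumour arrays were lowest and wildtype arrays highest with no overlap, and the tumour difference was -0.79 ± 0.09 (adjusted p = 9.99e-06). Cox6c, a small subunit with no isoform, was lower at -0.60 ± 0.08 (adjusted p = 4.03e-05). Of the subunits around the catalytic core, Cox5a was lower at -0.35 ± 0.08 (adjusted p = 0.00247) and Cox5b, which binds zinc, at -0.40 ± 0.11 (adjusted p = 0.00945). The Cox5b call was lost with the Xist class in the model (adjusted p = 0.0979).

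Several complex IV subunits exist as isoforms made from separate genes, and the general isoform was called lower in each of 5 such sets. Cox4i1, the general form of the largest nuclear subunit, was at 9.23, 9.27 and 9.36 on the Ptch1KO arrays, 9.53, 9.62 and 9.66 on the SufuKO arrays, and 9.81, 10.10 and 9.94 on the wildtype arrays. Groups did not overlap, and the tumour difference was -0.66 ± 0.08 (adjusted p = 2.28e-05). Cox4i2, its lung and low-oxygen counterpart, differed by -0.30 ± 0.07 (adjusted p = 0.00368). Cox6a1, the general form, was at 9.66, 9.54 and 9.49 on the Ptch1KO arrays, 9.86, 9.96 and 10.33 on the SufuKO arrays, and 10.36, 10.46 and 10.33 on the wildtype arrays. Groups did not overlap, although SufuKO replicate 3 and the lowest wildtype array were level to 2 decimals, and the tumour difference was -0.82 ± 0.11 (adjusted p = 4.06e-05). Cox6a2, the heart and muscle form, differed by -0.17 (adjusted p = 0.216) and was not called. Cox6b1 was lower at -0.48 ± 0.07 (adjusted p = 7.2e-05) and its testis counterpart Cox6b2 at -0.32 ± 0.07 (adjusted p = 0.0025). In the Cox7a set, the muscle form Cox7a1 differed by -0.42 ± 0.07 (adjusted p = 0.000208) and the general form Cox7a2 by -0.30 ± 0.10 (adjusted p = 0.0266), the Cox7a2 call being lost without Ptch1KO replicate 1 or 2 or wildtype replicate 2 and with the Xist class, with adjusted p up to 0.179. Cox7a2l, which joins complexes III and IV into supercomplexes, was at 0.15 (adjusted p = 0.248), and its dimmer probe set was called higher, at 0.20 (adjusted p = 0.028). The muscle form Cox8b (-0.06), the testis form Cox8c (0.09) and the low-oxygen Ndufa4 relative Ndufa4l2 (-0.06) were not called. Over the 9 arrays their log2 values were low, at 5.59 to 6.03, 6.30 to 6.68 and 5.92 to 6.21. These lie below the array medians of 6.72 to 6.79, and whether a fall could be seen at such levels was not tested. Cox7a1 and Cox6b2, which were called lower, were near those medians, at 6.63 to 7.17 and 6.73 to 7.14 over the arrays. Of 6 muscle marker genes, 0 were called in any comparison. In tumours, 24.7% of all tested genes were lower and 22.1% higher. The markers' summed level was 9.12 to 9.24 on Ptch1KO arrays, 9.04 to 9.22 on SufuKO arrays and 9.13 to 9.31 on wildtype arrays. Whether the tissue held muscle was not tested. Whether isoforms of a set differed in their change was not tested.

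**Figure D3:**
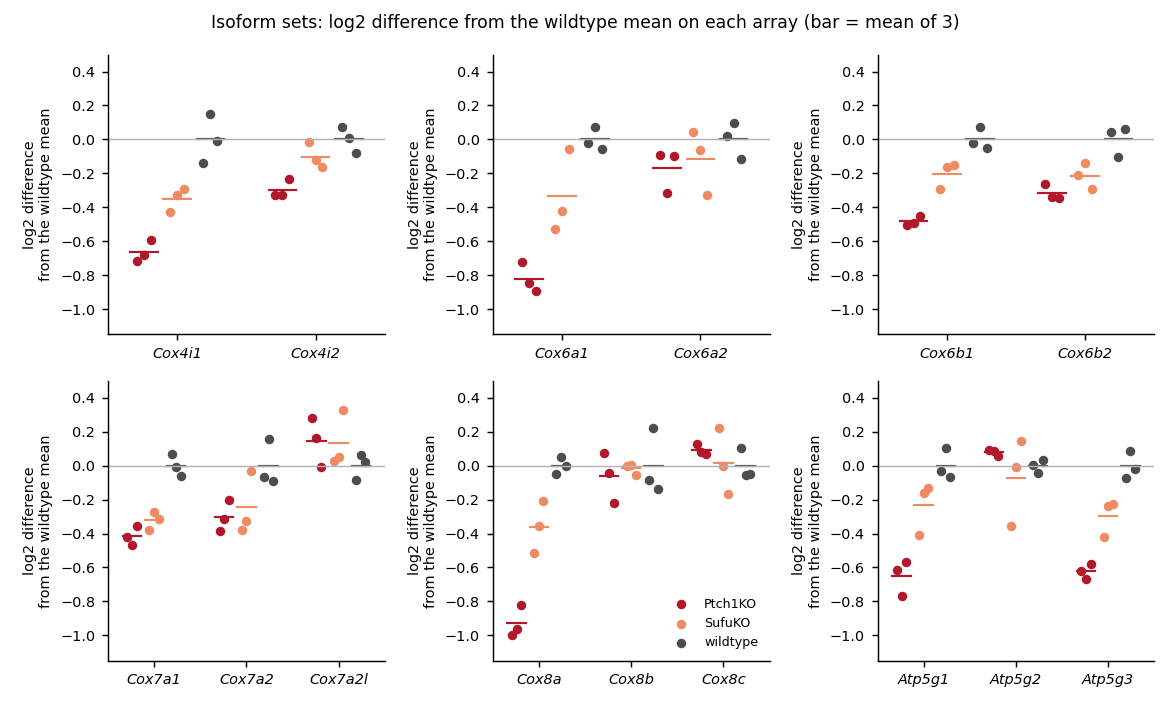
Each panel is an isoform set, each point an array, and the vertical axis the log2 difference of that array from the gene's wildtype mean, with bars for means of 3. The Cox8a, Cox6a1, Atp5g1 and Atp5g3 points of the Ptch1KO arrays lie far below 0, whereas the Cox8b, Cox8c and Atp5g2 points of the Ptch1KO arrays lie near 0. Levels of Cox8b and Cox8c were below the array medians, and whether a fall could be seen there was not tested.

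Complex V, the ATP synthase, had 14 of 17 genes lower in tumours. In its catalytic head, Atp5b, the beta subunit that makes ATP, was at 12.41, 12.40 and 12.44 on the Ptch1KO arrays, 12.67, 12.67 and 12.60 on the SufuKO arrays, and 12.79, 12.86 and 12.81 on the wildtype arrays. Each group occupied a narrow range of its own, with tumours lowest. The difference of Atp5b was -0.41 ± 0.06 (adjusted p = 0.000118), that of the alpha subunit Atp5a1 was -0.29 ± 0.07 (adjusted p = 0.00259), and that of the delta subunit of the central stalk, Atp5d, was -0.46 ± 0.06 (adjusted p = 4.66e-05). The gamma subunit Atp5c1 differed by -0.25 ± 0.07 (adjusted p = 0.0133), and this call was lost without wildtype replicate 2, with quantile normalization and with the Xist class, with adjusted p up to 0.0946. In the outer stalk, Atp5o, the subunit that links stalk and head, was lower at -0.38 ± 0.09 (adjusted p = 0.00276), Atp5h at -0.43 ± 0.09 (adjusted p = 0.00168) and Atp5pb at -0.36 ± 0.09 (adjusted p = 0.00526), and the Atp5pb call was lost with the Xist class (adjusted p = 0.0573). Atp5j, or coupling factor 6, was lower at -0.19 ± 0.07 (adjusted p = 0.0321), a call lost without any of several arrays (adjusted p up to 0.153). Among the small subunits that tie the enzyme into dimers, Atp5l, subunit g, was at -0.56 ± 0.14 (adjusted p = 0.00491), and all of its 6 probe sets were lower in tumours and in SufuKO. Atp5md, a dimer-associated proteolipid, was at -0.64 ± 0.16 (adjusted p = 0.00492). The Atp5l and Atp5md calls were lost with the Xist class in the model (adjusted p = 0.0503 and 0.0501). The proteolipid gene Atp5mpl was lower at -0.44 ± 0.09 (adjusted p = 0.00156), and Atp5k, subunit e, at -0.34 ± 0.11 (adjusted p = 0.0236), a call lost without any of 4 arrays and with the Xist class (adjusted p up to 0.219). Atp5e, the epsilon subunit, and Atp5j2 were not called in tumours, at -0.14 and -0.26.

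The ring of complex V that turns as protons pass is built from subunit c, a single mature protein encoded by Atp5g1, Atp5g2 and Atp5g3, which differ in their cleaved import signals. Of these 3 genes, 2 were lower in tumours. Atp5g1 was at 10.73, 10.58 and 10.78 on the Ptch1KO arrays, 10.94, 11.18 and 11.21 on the SufuKO arrays, and 11.31, 11.45 and 11.28 on the wildtype arrays. Atp5g3 was at 10.23, 10.18 and 10.27 on the Ptch1KO arrays, 10.43, 10.61 and 10.62 on the SufuKO arrays, and 10.78, 10.94 and 10.83 on the wildtype arrays. In both genes the groups were fully separated, with tumours lowest and wildtype highest. Atp5g2 was at 10.87, 10.86 and 10.83 on the Ptch1KO arrays, 10.42, 10.77 and 10.92 on the SufuKO arrays, and 10.78, 10.73 and 10.81 on the wildtype arrays. There the tumour arrays lay just above the wildtype arrays and the SufuKO arrays were spread on both sides. The differences in Ptch1KO against wildtype were -0.65 ± 0.09 (adjusted p = 6.11e-05) for Atp5g1, -0.62 ± 0.07 (adjusted p = 2.05e-05) for Atp5g3 and 0.08 ± 0.10 (adjusted p = 0.603) for Atp5g2. All 3 probe sets of Atp5g2 were uncalled in each comparison. The difference between the c subunit genes in their change was not tested.

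The promoters of members were searched for DNA words bound by known activators of respiratory chain genes. RefSeq promoter windows of the build GRCm38.p6, from 250 bases before to 50 bases after the start, were found for 73 of 90 members. A window was searched on both strands for the NRF1 core GCGCATGCG, the YY1 word AAGATGGCG and the ETS word CCGGAAG, which the Gabpa protein can bind. The NRF1 word was in the windows of 10 of 73 members (13.7%), against those of 1.95% of 27025 genes. The YY1 word was in 7 (9.59%), against 1.64%, and the ETS word in 18 (24.7%), against 9.93%. The 27025 genes are all those with a window, tested on the arrays or not, and shares over tested genes were not counted. Among the 56 members with a window that were lower in tumours, 9 held the NRF1 word, 5 the YY1 word and 14 the ETS word, and among the 17 others 1, 2 and 4 did. A match is only a run of letters in a window, and the words were chosen with the expression values known. The promoters of the 3 subunit c genes, of which 2 were lower in tumours, and of Cox6a1, which holds 2 of the words, are shown here as the 250 bases before the start, all on the minus strand, 5′ to 3′, with NRF1 and ETS matches in capitals. They lie at chr11:96075632-96075881 (Atp5g1), chr15:102671048-102671297 (Atp5g2), chr2:73911327-73911576 (Atp5g3) and chr5:115348959-115349208 (Cox6a1).
Atp5g1: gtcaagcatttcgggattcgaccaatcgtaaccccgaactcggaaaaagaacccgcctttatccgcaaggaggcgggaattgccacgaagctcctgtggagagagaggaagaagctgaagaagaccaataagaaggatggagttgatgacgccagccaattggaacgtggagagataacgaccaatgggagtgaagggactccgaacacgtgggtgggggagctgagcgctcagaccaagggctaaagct
Atp5g2: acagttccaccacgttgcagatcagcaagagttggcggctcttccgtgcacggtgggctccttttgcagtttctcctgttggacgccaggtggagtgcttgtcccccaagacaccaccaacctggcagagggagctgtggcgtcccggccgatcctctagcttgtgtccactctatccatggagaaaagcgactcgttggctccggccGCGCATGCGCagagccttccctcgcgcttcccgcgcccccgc
Atp5g3: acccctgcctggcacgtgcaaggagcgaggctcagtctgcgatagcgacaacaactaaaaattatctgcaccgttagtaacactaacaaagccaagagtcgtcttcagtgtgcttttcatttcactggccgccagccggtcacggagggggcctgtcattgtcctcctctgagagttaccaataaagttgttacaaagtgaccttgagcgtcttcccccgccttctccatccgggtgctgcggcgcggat
Cox6a1: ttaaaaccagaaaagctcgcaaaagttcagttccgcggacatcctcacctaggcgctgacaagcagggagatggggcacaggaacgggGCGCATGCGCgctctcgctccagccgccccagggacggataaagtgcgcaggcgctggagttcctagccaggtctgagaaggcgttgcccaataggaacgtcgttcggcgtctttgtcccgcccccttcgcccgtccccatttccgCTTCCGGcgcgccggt
The Atp5g2 window holds an NRF1 match that starts 42 bases before the start site and reads on both strands, and the windows of Atp5g1 and Atp5g3 hold none of the 3 words. The Cox6a1 window holds an NRF1 match 162 bases and an ETS match 16 bases before the start site. Of these 2 genes with a match, Atp5g2 was not called in tumours and Cox6a1 was among the deepest falls.

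In SufuKO, labelled as cerebellum and not as tumour, respiratory chain genes were also below wildtype, with calls in fewer members. Against wildtype, 34 of 89 members were lower and 0 were higher in limma, where 12.4% of all tested genes were lower and 13% higher. At an unadjusted p under 0.05, 50 members were lower and 0 higher, against 17.47% and 18.33% of all tested genes. The members' median difference was -0.21, against -0.01 for all tested genes. All 3 SufuKO arrays lay below all wildtype arrays for 41 members, which was so for 19.6% of all tested genes. Of the 2492 genes at or above the members' median level, 20.75% were lower and 20.51% higher. Lower members numbered 12 of 34 in complex I, 1 of 4 in complex II, 5 of 9 in complex III, 9 of 18 in complex IV and 7 of 17 in complex V, and 0 of 7 assembly factors. The count depended on single arrays: it was 17 without SufuKO replicate 1, 19 without SufuKO replicate 2, 16 without wildtype replicate 2 and 17 without wildtype replicate 3. It was also 17 with the Xist class in the model, and 54 with array weights. The share of all tested genes called lower moved as well, to 22.7% with array weights, 11.19% with the Xist class and 9.349% to 10.53% without 1 of those 4 arrays. In these 6 fits the members' median lay between -0.22 and -0.16. For the 19 calls lost with the Xist class, the median difference was -0.25 with the term and -0.34 without it.

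The 11 SufuKO calls that held under all 19 alternatives came from every complex. In complex I they were Ndufb9, at -0.47 ± 0.08 (adjusted p = 0.00135), and Ndufs7, at -0.36 ± 0.07 (adjusted p = 0.00337). In complex II the stable call was Sdha. Complex III gave 4, which were Cyc1 at -0.37 ± 0.09 (adjusted p = 0.00826), Uqcr11 at -0.48 ± 0.11 (adjusted p = 0.00576), Uqcrc1 at -0.42 ± 0.09 (adjusted p = 0.00496) and Uqcrb. Complex IV gave 3, of which Cox6c, at 11.86, 11.85 and 11.89 on the Ptch1KO arrays, 11.85, 12.04 and 12.15 on the SufuKO arrays, and 12.41, 12.51 and 12.49 on the wildtype arrays, was the deepest. SufuKO replicate 1 reached the tumour range, and all SufuKO arrays lay below wildtype, with a difference of -0.46 ± 0.08 (adjusted p = 0.00119). Cox4i1 differed by -0.35 ± 0.08 (adjusted p = 0.00755) and Cox7a1 by -0.32 ± 0.07 (adjusted p = 0.00371). Cox7a1 was at 6.72 to 6.83 on the SufuKO arrays, near the array medians of 6.72 to 6.79. Complex V gave Atp5mpl at -0.39 ± 0.09 (adjusted p = 0.00808).

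Of the remaining SufuKO calls, the deepest were in genes whose SufuKO arrays were spread widely. Ndufc1, an accessory subunit of the membrane arm, was at 8.88, 8.81 and 8.97 on the Ptch1KO arrays, 8.44, 8.82 and 9.27 on the SufuKO arrays, and 9.37, 9.49 and 9.44 on the wildtype arrays. The SufuKO arrays were spread over more than the whole tumour range, though all lay below wildtype, and the difference was -0.59 ± 0.15 (adjusted p = 0.0138). It was not called without wildtype replicate 2 (adjusted p = 0.051) or with the Xist class in the model (adjusted p = 0.0962). Atp5md was at 10.73, 10.62 and 10.73 on the Ptch1KO arrays, 10.35, 10.74 and 11.20 on the SufuKO arrays, and 11.24, 11.35 and 11.39 on the wildtype arrays. SufuKO replicate 1 was lower than any tumour array and replicate 3 was close to wildtype, with a difference of -0.57 ± 0.16 (adjusted p = 0.0197). Its call was lost without SufuKO replicate 2, wildtype replicate 2 or wildtype replicate 3 and with the Xist class, with adjusted p up to 0.131. The Cox8a difference of -0.36 ± 0.09 (adjusted p = 0.00836) and the Uqcrh difference of -0.34 ± 0.08 (adjusted p = 0.00879) were lost with the Xist class (adjusted p = 0.0523 and 0.0645), and the Atp5g3 difference of -0.29 ± 0.07 (adjusted p = 0.0125) without wildtype replicate 2 (adjusted p = 0.0612). Cox7b was lower at -0.35 (adjusted p = 0.0292) on its brighter probe set and not called on the dimmer one, at -0.19 (adjusted p = 0.351). The calls of Cox6a1 (-0.33), Cox6b1 (-0.20), Ndufa4 (-0.35) and Atp5l (-0.52) were lost without SufuKO replicate 2, among other arrays. Ndufa12 was called lower in SufuKO, at -0.30 (adjusted p = 0.0288), but not in tumours, at -0.15 (adjusted p = 0.217), and its SufuKO call was lost without any 1 of 5 arrays (adjusted p up to 0.185). The other 12 calls were of Ndufa1, Ndufa3, Ndufa5, Ndufa11, Ndufb6, Ndufb11, Ndufc2, Ndufs6, Cox6b2, Atp5d, Atp5j and Atp5pb. Their differences lay between -0.50 and -0.21, and each call was lost when some 1 array was left out. In Ndufa1, Ndufa5, Ndufb6 and Ndufc2 the SufuKO and wildtype arrays overlapped. The dimmer probe set of Ndufa11 was not called, at -0.15 (adjusted p = 0.255). Atp5g1 was not called at -0.23 (adjusted p = 0.0768), while its dimmer probe set was lower, at -0.27 (adjusted p = 0.0377).

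Set directly against each other, tumours were lower than SufuKO cerebellum in 25 of 89 members and higher in 0, where 17.5% of all tested genes were lower and 12.2% higher. At an unadjusted p under 0.05 in limma, 34 members were lower and 0 higher, against 21.58% and 16.3% of all tested genes. The median difference was -0.15, against -0.01 for all tested genes, and it was -0.08 without SufuKO replicate 3. For 33 members, all Ptch1KO arrays lay below all SufuKO arrays, which was so for 23.6% of all tested genes. Of the genes at or above the members' median level, 36.0% were lower and 11.96% higher, against the members' 28.1% lower and 0 higher. Lower members numbered 9 of 34 in complex I, 2 of 4 in complex II, 1 of 9 in complex III, 7 of 18 in complex IV and 5 of 17 in complex V, beside 1 of 7 assembly factors. The deepest was Cox8a, then Cox7b at -0.54 ± 0.10 (adjusted p = 0.00179), Cox6a1 at -0.49 ± 0.11 (adjusted p = 0.00428) and Ndufv3 at -0.48 ± 0.07 (adjusted p = 0.000294). Ndufb3, an accessory subunit of complex I, was at 6.61, 6.87 and 6.62 on the Ptch1KO arrays, 7.06, 7.11 and 7.21 on the SufuKO arrays, and 7.16, 7.25 and 7.28 on the wildtype arrays. Tumour arrays were lowest, SufuKO and wildtype arrays overlapped, and the difference between mutants was -0.43 ± 0.08 (adjusted p = 0.00171). Ndufb10 differed by -0.34 ± 0.07 (adjusted p = 0.00402), Ndufa8 by -0.40 ± 0.10 (adjusted p = 0.00887), Atp5g1 by -0.42 ± 0.09 (adjusted p = 0.00359) and Atp5d by -0.26 ± 0.06 (adjusted p = 0.00743). In complex III the lower gene was Uqcrb, at -0.33 ± 0.07 (adjusted p = 0.00243), and among assembly factors it was Ndufaf3, at -0.28 ± 0.08 (adjusted p = 0.0228), a call lost with quantile normalization and without Ptch1KO replicate 1, SufuKO replicate 1 or SufuKO replicate 2 (adjusted p up to 0.108). The other 12 calls lay between -0.44 for Ndufa4 and -0.20 for Atp5a1. Among them the calls of Ndufa3, Ndufa10, Ndufa13, Ndufs1, Ndufs5, Cox5b, Atp5a1 and Atp5b were each lost when some 1 array was left out, with adjusted p between 0.0516 and 0.2 at most. The dimmer probe set of Cox5b was not called, at -0.37 (adjusted p = 0.0501). Of the 25 calls, 16 held under all 19 alternatives. Without SufuKO replicate 3, Ndufa12 was higher in tumours at 0.26 (adjusted p = 0.0201). With array weights 44 members were lower and 3 (Ndufa12, Ndufaf1 and Uqcrfs1) were higher, in a fit that called 27.25% of all tested genes lower and 22.66% higher.

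Members tended to stand high or low together by group, and within SufuKO and wildtype also on single arrays. The group means stood in the order Ptch1KO, SufuKO, wildtype from low to high for 73 of 89 members, against 31.6% of all tested genes. For 17 members, or 19.1%, the arrays themselves were separated in that order, which was so for 11.1% of all tested genes. These were Ndufa3, Ndufa8, Ndufa13, Ndufs6 and Ndufv3 of complex I, Sdhc of complex II, Uqcrb of complex III, Cox4i1, Cox6a1, Cox6b1, Cox7b, Cox8a and Ndufa4 of complex IV, and Atp5b, Atp5d, Atp5g1 and Atp5g3 of complex V. Within the SufuKO group, replicate 1 was the lowest array for 65 members and replicate 3 the highest for 64, and the members' median differences from the wildtype mean were -0.29, -0.20 and -0.12 on the 3 arrays. Within wildtype, replicate 1 was lowest for 59 members and replicate 2 highest for 53. The 3 tumour arrays lay close together, at -0.39, -0.35 and -0.38. Tumour replicates 1, 2 and 3 were lowest in their group for 20, 33 and 36 members and highest for 33, 23 and 33. Shares of all tested genes lowest or highest on each array were not counted. The tumour array with high Xist was replicate 2, at -0.35, and the wildtype arrays, all with high Xist, were at -0.07 to 0.05. The SufuKO array with high Xist was replicate 3, at -0.12, which is the SufuKO array nearest to wildtype. Each of these mutant values is from 1 array, so Xist class and array cannot be told apart, and a part of Xist class in them was not tested. Genes for cytosolic ribosomal proteins had medians over 50 genes of 0.83, 0.80 and 0.69 on Ptch1KO arrays and 0.16, 0.34 and 0.46 on SufuKO arrays.

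Subunits encoded by mitochondrial DNA had 2 probe sets annotated to 1 gene. ND3, a complex I subunit, was at 11.54, 11.37 and 11.42 on the Ptch1KO arrays, 11.16, 11.24 and 11.91 on the SufuKO arrays, and 12.12, 12.06 and 12.14 on the wildtype arrays. SufuKO replicates 1 and 2 were the lowest arrays, and both mutant groups lay below wildtype. Its difference was -0.66 ± 0.15 (adjusted p = 0.00297) in Ptch1KO and -0.67 ± 0.15 (adjusted p = 0.00642) in SufuKO against wildtype. COX2, the complex IV subunit that receives electrons from cytochrome c, differed by -0.39 ± 0.10 (adjusted p = 0.00527) in Ptch1KO and -0.38 ± 0.10 (adjusted p = 0.0129) in SufuKO. Between the mutants, ND3 differed by 0.01 (adjusted p = 0.977) and COX2 by -0.01 (adjusted p = 0.962). Probe sets shared between genes could not enter the tests by gene. Some of these cover other subunits encoded by mitochondrial DNA. The 2 shared by ATP6, of complex V, and Gm10925 were lower, at -0.33 and -0.30 in Ptch1KO and -0.30 and -0.28 in SufuKO against wildtype. The 1 shared by ND6, of complex I, and Acsm2 was lower at -0.54 in Ptch1KO and -0.39 in SufuKO. The 3 probe sets shared by Cox7c, a complex IV subunit, and Gm12338 were lower by 0.49 to 0.50 in Ptch1KO and by 0.37 to 0.46 in SufuKO against wildtype. The 2 probe sets shared by Ndufb4 and Ndufb4b were not called, with differences of -0.26 and -0.23 in Ptch1KO and -0.32 and -0.29 in SufuKO. The 25 further probe sets of members agreed in direction with few exceptions: 20 were lower and 1, that of Cox7a2l, was higher in tumours, and 15 were lower and 0 higher in SufuKO.

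Most of the listed genes of pathways that feed the chain had lower RNA levels in tumours. Over all tested genes, 24.7% were lower and 22.1% higher in tumours, and 12.4% were lower in SufuKO. Of 13 citric acid cycle genes outside complex II, 11 were lower and 2 higher in tumours, with a median of -0.33. Idh3a, the catalytic subunit of the NAD-dependent isocitrate dehydrogenase, was lower at -0.69 ± 0.07 (adjusted p = 8e-06) and Ogdh, of the oxoglutarate dehydrogenase complex, at -0.62 ± 0.07 (adjusted p = 1.3e-05). Idh2, the mitochondrial NADP-dependent isocitrate dehydrogenase, was at 10.06, 10.12 and 9.76 on the Ptch1KO arrays, 9.35, 9.40 and 9.21 on the SufuKO arrays, and 8.77, 8.73 and 8.65 on the wildtype arrays. The order of its groups was the reverse of that of the subunits, without overlap, and its difference in tumours was 1.26 ± 0.10 (adjusted p = 4.24e-07). Suclg2, a succinate-CoA ligase subunit, was higher at 0.61 ± 0.11 (adjusted p = 0.000503). In SufuKO, 5 of the 13 were lower and Idh2 was higher, at 0.60 ± 0.10 (adjusted p = 0.000681). Of 11 genes for entry of pyruvate and its control, 8 were lower in tumours. Among them were Dlat, a subunit of the pyruvate dehydrogenase complex, at -0.59 ± 0.08 (adjusted p = 6.28e-05) and Pdk2, a kinase that inhibits the complex, at -1.42 ± 0.09 (adjusted p = 1.06e-07). The activating phosphatase Pdp2 was higher at 0.22 ± 0.07 (adjusted p = 0.0243). In SufuKO 5 of these 11 were lower and 1, Pdp2, was higher. Among 8 genes for cytochrome c, nucleotide carriers and related proteins, 6 were lower in tumours and 5 in SufuKO. Cycs, cytochrome c itself, was lower in tumours at -0.62 ± 0.11 (adjusted p = 0.000346), the adenine nucleotide carrier Slc25a4 at -0.60 ± 0.07 (adjusted p = 1.53e-05), and Ckmt1, the mitochondrial creatine kinase, at -2.07 ± 0.13 (adjusted p = 1.2e-07), and the carrier Slc25a5 was not called, at -0.15.

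Genes that import and translate mitochondrial proteins, or copy and transcribe mitochondrial DNA, had calls in both directions in tumours, where 24.7% of all tested genes were lower and 22.1% higher. Of 76 mitochondrial ribosomal protein genes, 12 were higher and 6 lower in tumours, with a median difference of 0.05, and 2 were higher and 0 lower in SufuKO. Mrpl13 was higher in tumours at 0.70 ± 0.13 (adjusted p = 0.000594) and Mrpl52 at 0.55 ± 0.10 (adjusted p = 0.000462), while Mrps21 was lower at -0.51 ± 0.11 (adjusted p = 0.00135). Of 20 import genes, 5 were higher and 2 lower in tumours, led by Timm8a1, a chaperone of the space between the membranes, at 0.63 ± 0.11 (adjusted p = 0.00058), and Timm50, a receptor of the inner membrane translocase, at 0.44 ± 0.07 (adjusted p = 0.000209). In SufuKO 1 import gene, Timm17a, was lower (-0.27) and 0 were higher. Of 14 genes for mitochondrial DNA and its transcription, 8 were higher and 2 lower in tumours. Twnk, the helicase that copies mitochondrial DNA, was higher at 0.86 ± 0.09 (adjusted p = 9.41e-06), the methyltransferase Tfb1m at 0.47 ± 0.09 (adjusted p = 0.000793) and the packaging factor Tfam at 0.45 ± 0.13 (adjusted p = 0.0104), while the topoisomerase Top1mt was lower at -0.47 ± 0.08 (adjusted p = 0.000308). In SufuKO 2 of these, Twnk (0.35) and Tefm (0.21), were higher. Genes that build complexes II to V were called lower or not at all in tumours. Complex IV assembly genes were lower in 8 of 21 cases in tumours, with Higd1a at -0.97 ± 0.10 (adjusted p = 5.92e-06) and Higd2a at -0.92 ± 0.09 (adjusted p = 3.46e-06) far below the list's median of -0.07, and in 3 of 21 cases in SufuKO (Higd1a, Higd2a and Cox14). Higd1a and Higd2a belong to a family of small membrane proteins that associate with complex IV. In tumours, 2 of 4 complex II assembly genes (Sdhaf1 and Sdhaf2), 2 of 5 complex III assembly genes (Ttc19 and Uqcc1) and 2 of 4 complex V assembly and inhibitor genes (Atpaf1 and Tmem70) were lower and 0 were higher, and in SufuKO 0 of these 13 were called. The differences of these 6 genes in tumours lay between -0.40 and -0.27.

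**Figure D4:**
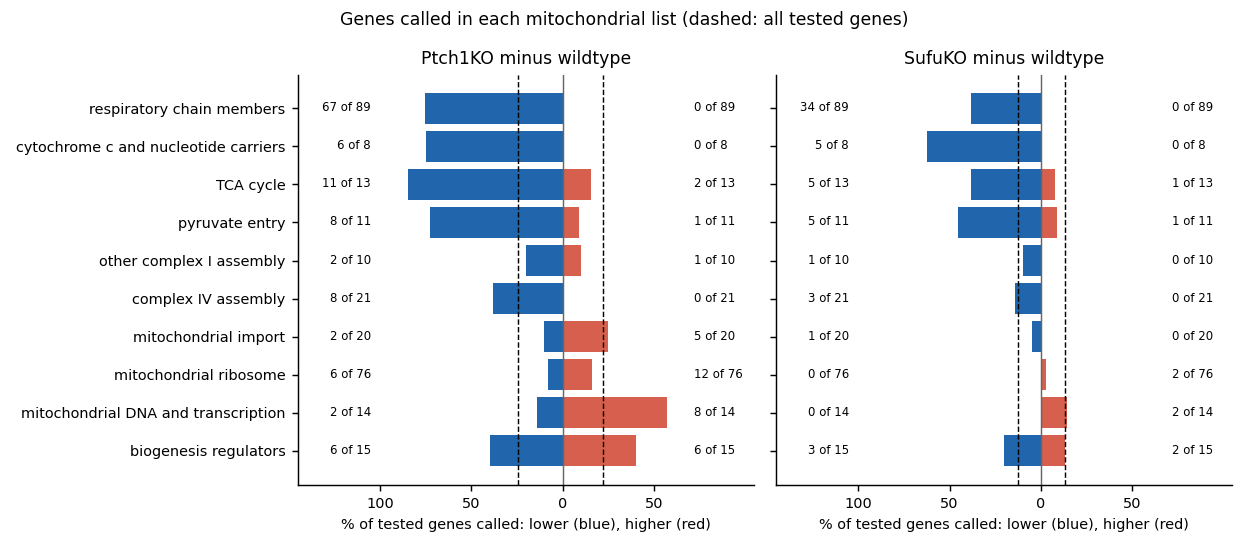
Bars give the percentage of the tested genes of each list called lower, to the left of 0, and higher, to the right, in Ptch1KO against wildtype and in SufuKO against wildtype, with the counts at the sides. Dashed lines give the percentages over all tested genes, which in the tumours are 24.7% lower and 22.1% higher. Respiratory chain members, citric acid cycle, pyruvate entry and carrier genes lie mostly to the left, and genes for mitochondrial DNA and transcription mostly to the right.

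Regulators of respiratory chain transcription split in direction. Of 15 such genes, 6 were lower and 6 higher in tumours, where 24.7% of all tested genes were lower and 22.1% higher. Ppargc1a, which encodes PGC-1alpha, the coactivator that drives mitochondrial biogenesis, was at 7.76, 7.57 and 8.02 on the Ptch1KO arrays, 8.39, 8.66 and 8.48 on the SufuKO arrays, and 9.27, 9.14 and 9.26 on the wildtype arrays. Groups were fully separated, tumours lowest, and the difference was -1.44 ± 0.11 (adjusted p = 4.15e-07) in Ptch1KO and -0.72 ± 0.11 (adjusted p = 0.000496) in SufuKO against wildtype. Its relative Ppargc1b was lower in tumours at -1.23 ± 0.09 (adjusted p = 3e-07), and Esrrg, an orphan nuclear receptor that PGC-1 proteins coactivate, at -1.26 ± 0.09 (adjusted p = 2.89e-07). Both were also lower in SufuKO, at -0.54 ± 0.09 (adjusted p = 0.000851) and -0.44 ± 0.09 (adjusted p = 0.00353). Nrf1, which encodes nuclear respiratory factor 1, a direct activator of many subunit genes, was at 8.22, 8.21 and 8.06 on the Ptch1KO arrays, 7.90, 7.86 and 7.94 on the SufuKO arrays, and 7.64, 7.37 and 7.66 on the wildtype arrays. The order was reversed, with tumours highest, SufuKO between and wildtype lowest, and no overlap. The difference of Nrf1 was 0.61 ± 0.09 (adjusted p = 7.24e-05) in Ptch1KO and 0.34 ± 0.09 (adjusted p = 0.0114) in SufuKO against wildtype. The subunits of nuclear respiratory factor 2, Gabpa and Gabpb1, were higher in tumours at 0.53 ± 0.10 (adjusted p = 0.00113) and 0.69 ± 0.11 (adjusted p = 0.000164), and the PGC-1 related coactivator Pprc1 at 0.69 ± 0.08 (adjusted p = 1.3e-05). Yy1 was higher at 0.22 ± 0.09 (adjusted p = 0.0472) and the deacetylase gene Sirt1 at 0.38 ± 0.10 (adjusted p = 0.00768). The remaining lower genes were Sirt3 (-0.50), Esrrb (-0.47) and Ppard (-0.42), and Esrra, Ppara and Gabpb2 were not called. In SufuKO 3 of the 15 were lower and 2, Nrf1 and Gabpb1, higher.

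**Figure D5:**
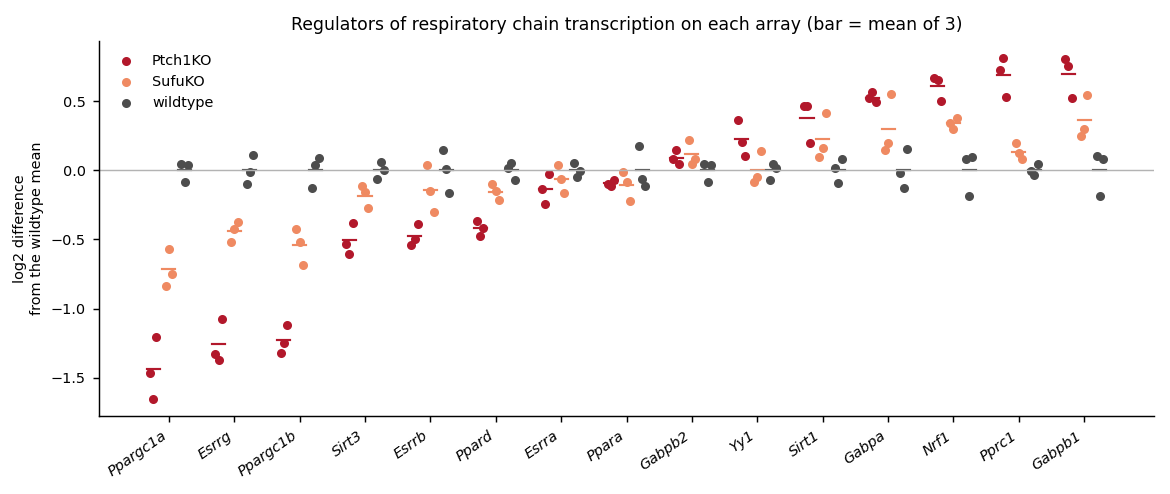
Each point is 1 array, and the vertical axis gives the log2 difference from the gene's wildtype mean for 15 regulators of respiratory chain transcription, with bars for means of 3 arrays. Ppargc1a, Esrrg and Ppargc1b lie lowest on the Ptch1KO arrays, with SufuKO between, and Nrf1, Pprc1 and Gabpb1 lie highest on the Ptch1KO arrays.

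Cell type marker genes also differed between the groups. Over all tested genes, 24.7% were lower and 22.1% higher in tumours, and 12.4% were lower and 13% higher in SufuKO. Whether the calls of a marker list exceeded these shares was not tested, and lists with few calls may not differ from them. Markers of mature granule neurons, the most abundant neurons of the cerebellum, were lower in tumours for 8 of 8 genes and in SufuKO for 6 of 8, with median differences of -2.04 and -0.77. Their summed level was 12.32 to 12.90 on Ptch1KO arrays, 13.61 to 13.70 on SufuKO arrays and 14.26 to 14.47 on wildtype arrays. Markers of granule neuron progenitors were higher for 8 of 8 genes in tumours and 7 of 8 in SufuKO, with a summed level of 13.18 to 13.52 on Ptch1KO arrays, 12.60 to 12.67 on SufuKO arrays and 10.87 to 11.17 on wildtype arrays. Genes of dividing cells were higher for 7 of 7 in both mutants. Markers of Purkinje cells (6 of 6 in both mutants), GABAergic interneurons (5 of 5 in tumours, 4 of 5 in SufuKO), Bergmann glia and astrocytes (5 of 6 in tumours, 6 of 6 in SufuKO) and oligodendrocytes (5 of 5 in both) were lower, as were 4 of 6 markers of blood vessel cells in tumours and 2 of 6 in SufuKO. Of 2 red blood cell genes 1, Alas2, was lower in tumours, and of 4 testis germ cell genes 1, Prm1, was higher in both mutants, at 4.49 in Ptch1KO and 4.03 in SufuKO. The part of these marker differences in the lower levels of respiratory chain genes was not tested.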

How the data were processed

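Total RNA from dissected, frozen cerebellum or tumour was labelled and hybridised to Affymetrix Mouse Gene 1.0 ST arrays, per the labels' protocols. The authors deposited log2 expression values for 35556 probe sets on 9 arrays; background correction, summarisation and normalization were not given in the sources used here, and their effect on these values is unknown. The number of arrays, 3 a group, limits the precision. Probe sets were named from GEO's platform annotation: 21789 had 1 gene symbol, 1621 several and 12146 none, and those with several were kept out of the tests by gene. Groups were taken from the sample labels.

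The brightest probe set of each gene was kept, and a gene was tested where at least 3 arrays had it above their 25th percentile. One limma model (version 3.58.1, R 4.3.3) with empirical Bayes variances was fitted to all 9 arrays and all tested genes, each of the 3 comparisons was a contrast in it, and p-values were adjusted over all tested genes by the Benjamini-Hochberg method with a threshold of 0.05. Further and shared probe sets were tested in separate fits of the same form. Counts at an unadjusted p used the same threshold. The model was tested on simulated data. The 19 alternatives covered 2 other filters, the mean over a gene's probe sets, quantile normalization, median centring, a trended robust prior, array weights, fits of the 2 groups compared alone, a replicate block, Xist as a sex covariate and each array left out.

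In each comparison the text names all Sdh genes, the 3 highest and 3 lowest called members of each complex without overlap, the isoform sets, members whose probe sets disagree and the 2 largest called changes of each other mitochondrial list; other genes were named after their values were seen. The members, lists, markers and DNA words were chosen with earlier results of these data known.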

Additional observations from a re-analysis of the deposited data

How the results depend on the processing

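No alternative reversed the sign of a called difference among the named genes or of a members' median. In Ptch1KO against wildtype, between 46 members (sex covariate) and 70 were lower, and the median log2 difference lay between -0.39 and -0.32. In SufuKO against wildtype the count of lower members, 34, was 54 with array weights, 17 with the sex covariate and 16 to 40 when 1 array was left out, and the median lay between -0.24 and -0.16. In Ptch1KO against SufuKO the count of lower members, 25, was 44 with array weights, the count of higher members was 3 with array weights and 0 to 1 when 1 array was left out, and the median lay between -0.19 and -0.08, with -0.08 without SufuKO replicate 3. The array weights did not converge and gave SufuKO replicate 2 a weight of 17.99, against 0.366 to 1.16 for the other arrays, and the cause of the other changes was not tested. With the replicate block, 68, 32 and 23 members were lower in these 3 comparisons; same-numbered samples correlated at -0.313 to 0.352, so the numbers were not taken to pair samples.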
